A study of Mus musculus with 2 samples.

Results

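The leukotriene and prostaglandin synthesis genes are 10 genes of the arachidonic acid pathway, chosen by name with earlier results of these data known. They were Pla2g4a, Alox5, Alox5ap, Lta4h, Ltc4s, Ptgs1, Ptgs2, Hpgds, Alox12 and Alox15, and all 10 had a row among the 69691 rows of the gene table, 21474 of which matched a protein-coding gene. They were measured by total RNA-seq in granulocyte-monocyte progenitors (GMP), the bone marrow progenitors of neutrophils and monocytes. The primary cells came from adult male C57BL/6J mice aged 5 to 6 weeks, with no genotype change or treatment named in the labels. There was 1 group of 2 libraries, replicate 1 and replicate 2, each from a pool of 100 cells with spike-in RNAs added and RNA over 200 nucleotides kept. They share a donor identifier but not a sample identifier, and whether they are from separate animals is not stated, so each SD is the spread between these samples alone, which may be technical. With no second group, the data allow a description of levels and no test between conditions.

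Arachidonic acid is cut from membrane phospholipids by phospholipase A2 and oxidised along separate branches. In the 5-lipoxygenase branch, 5-lipoxygenase works with its activating protein at the nuclear membrane to make leukotriene A4, which a hydrolase turns into leukotriene B4, a neutrophil attractant, or a synthase joins to glutathione to make leukotriene C4. In the cyclooxygenase branch, prostaglandin H synthases make prostaglandin H2, from which terminal synthases make the individual prostaglandins and thromboxane. Neutrophils and macrophages are known for leukotriene B4, and mast cells, basophils and eosinophils for leukotriene C4, while mast cells are also known for prostaglandin D2.

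Most of the RNA of these genes was from Lta4h and Alox5ap, which both serve the branch to leukotriene B4. Of the 10 genes, 5 reached 1 TPM or more in both libraries (Pla2g4a, Alox5, Alox5ap, Lta4h and Ptgs1), beside 45.6% of all protein-coding genes. TPM (transcripts scaled to a fixed total) is corrected for transcript length and can be compared between genes, unlike CPM (counts scaled by the library total), which can be compared only between libraries. Ltc4s, Ptgs2 and Hpgds had counts in replicate 2 alone, and Alox12 and Alox15 had 0 counts in both. The median of the mean TPM was 2.57 over the 10 genes and 0.55 over all protein-coding genes. The summed TPM of the 10 genes was 450.2 in replicate 1 and 374.3 in replicate 2, of which Lta4h and Alox5ap held 88.4% and 92.3%. In a bulk sample, fewer cells that express a gene and less of its RNA in each cell cannot be told apart.

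**Figure D1:**
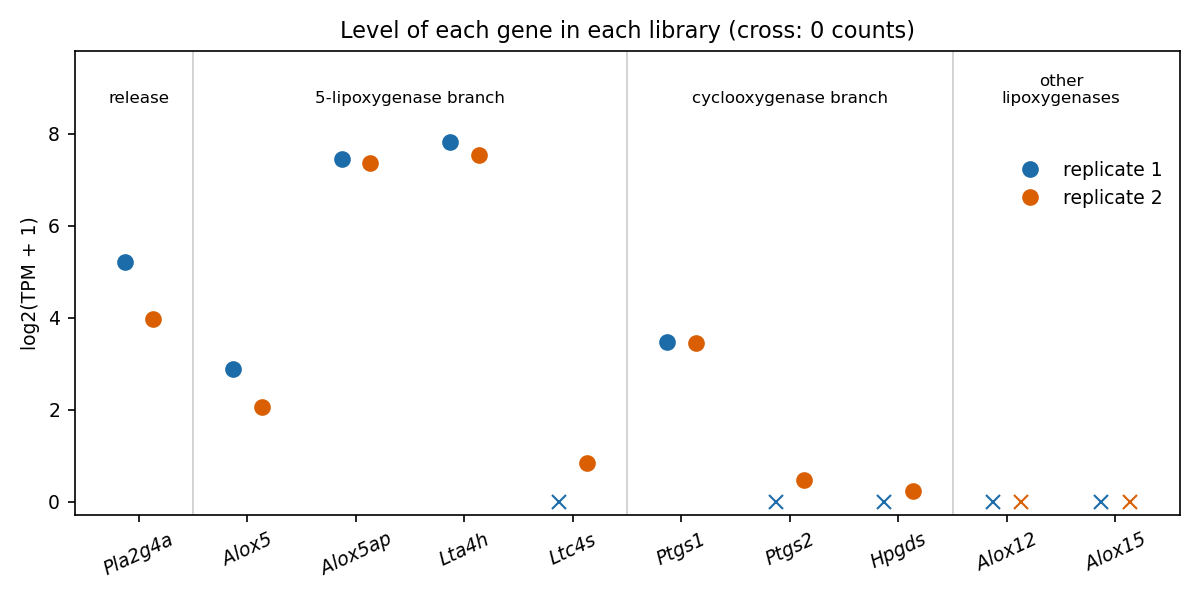
Level of each gene as log2(TPM + 1) on the vertical axis, with replicate 1 in blue and replicate 2 in orange, ordered by role; a cross marks 0 counts. Lta4h (225.41 and 183.02 TPM) and Alox5ap (172.66 and 162.33 TPM) lie far above the other genes, while Ltc4s, Ptgs2 and Hpgds show a point only in replicate 2.

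The labelled cell type was checked against its markers. All 9 progenitor markers were at 1 TPM or more in both libraries, led by the granule genes Mpo (6331.68 and 6601.88 TPM), Elane (2982.85 and 3140.63 TPM) and Prtn3 (1076.78 and 1817.94 TPM). The libraries held 40509954 and 35675702 expected counts, so the 3 counts that a count of 0 allows equal 0.0741 CPM in replicate 1 and 0.0841 CPM in replicate 2. Markers of later neutrophils summed to 90.87 TPM in replicate 1 and 8.97 in replicate 2, led by Ngp (44.66 and 0.88), Camp (24.44 and 1.99) and Retnlg (12.39 and 0.08), with none of the 7 at 0 in both. Basophil and mast cell markers summed to 224 and 135.5 TPM, led by Mcpt8 (59.64 and 38.49), Hdc (37.93 and 39.69) and Cpa3 (41.53 and 35.86), 6 of the 10 reaching 1 TPM in each library and the mast cell genes Tpsb2 and Cma1 at 0 counts in both. Eosinophil markers summed to 14.2 and 11.66 TPM with Prg2, Il5ra and Ccr3 at 0 of 6, megakaryocyte and platelet markers to 10.82 and 8.09 with Ppbp at 0 of 7, and macrophage markers to 8.38 and 8.55 with none of 6 at 0 in both.

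A pair of transcript stretches and a set of promoter windows show where the results below lie on the genome. The first stretch is from Pla2g4a-203, a short transcript of Pla2g4a annotated as a processed transcript, which took counts in replicate 1 alone. It runs on GRCm38 at chr1:149932575-149932690, minus strand, and its 33 capitals are the first coding bases of the gene, starting with the ATG. The 83 lower-case bases after them, chr1:149932575-149932657, start with gt, are intronic in the main coding transcript and are in no other annotated transcript of the gene. They hold a run of 26 bases of gt repeats and end in a run of 10 c.

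Pla2g4a-203 stretch: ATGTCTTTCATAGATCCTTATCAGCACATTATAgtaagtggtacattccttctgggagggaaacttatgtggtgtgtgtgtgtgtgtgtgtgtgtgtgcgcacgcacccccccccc

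The second stretch is the part of the Alox5 coding sequence that separates its 2 coding transcripts with counts. It spans 96 bases, or 32 codons, at chr6:116413821-116413916 on the minus strand of GRCm38, and is in Alox5-201 but not in Alox5-207.

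Alox5-201 stretch: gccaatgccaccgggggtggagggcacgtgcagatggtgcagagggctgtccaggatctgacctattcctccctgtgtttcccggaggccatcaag

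The promoter windows are the 250 bases before the RefSeq start on GRCm38.p6, shown for Lta4h, the highest gene of the 10, and for the prostaglandin H synthases Ptgs1 and Ptgs2, which lay far apart in level. They lie at chr10:93453146-93453395, plus strand, for Lta4h, chr2:36230176-36230425, plus strand, for Ptgs1, and chr1:150099781-150100030, plus strand, for Ptgs2. Capitals mark GAGGAA, the core bound by the myeloid factor PU.1, its reverse complement TTCCTC, and GGGCGG, the GC box.

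Lta4h: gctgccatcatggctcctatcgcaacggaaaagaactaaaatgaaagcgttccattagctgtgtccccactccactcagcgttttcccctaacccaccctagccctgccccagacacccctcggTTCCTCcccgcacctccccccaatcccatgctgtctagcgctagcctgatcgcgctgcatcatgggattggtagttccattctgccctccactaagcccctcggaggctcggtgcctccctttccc
Ptgs1: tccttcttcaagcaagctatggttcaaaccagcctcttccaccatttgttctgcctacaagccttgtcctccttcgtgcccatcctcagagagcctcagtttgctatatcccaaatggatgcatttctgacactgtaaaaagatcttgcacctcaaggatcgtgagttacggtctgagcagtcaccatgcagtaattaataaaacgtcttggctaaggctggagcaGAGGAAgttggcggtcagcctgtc
Ptgs2: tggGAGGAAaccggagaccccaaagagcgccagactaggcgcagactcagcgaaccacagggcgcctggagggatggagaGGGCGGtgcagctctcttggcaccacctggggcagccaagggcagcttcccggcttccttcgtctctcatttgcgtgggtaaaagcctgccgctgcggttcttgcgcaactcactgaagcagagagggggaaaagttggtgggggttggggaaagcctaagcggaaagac

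The motifs were searched on both strands in the windows of the 8 genes with an entry, 9 windows in all because Pla2g4a has a pair; Alox5ap and Alox15 had no entry. GAGGAA was in 6 of the 9 windows, beside 23.3% of 32851 promoters. It lay 136 bases before the start of Alox5, 126 of Lta4h, 24 of Ptgs1, 247 of Ptgs2, 49 of Hpgds and 245 of Alox12, counted from the motif's first base. The list of genes with the motif thus holds both expressed genes and genes with 0 counts. GGGCGG was in 3 of the 9 windows (Alox5, Ptgs2 and Alox12), beside 32.7% of all, and TATAAA was in 1, the second window of Pla2g4a, beside 12.4%. The windows held 5 CpG in Ptgs1, 13 in Ptgs2 and 11 in Lta4h, with a median of 6 over all promoters. A match is a description of letters and not a bound site.

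Pla2g4a, the cytosolic phospholipase A2 that releases arachidonic acid, lies at chr1:149829618-149961290 on the minus strand. It had 1189 counts in replicate 1 and 1057 in replicate 2, equal to 29.35 and 29.63 CPM, a ratio of replicate 2 to replicate 1 of 1.01 with a 95% exact interval of 0.928 to 1.1 that covers counting error only. By TPM the gene had 35.71 and 14.58, or 25.1 ± 14.9 (SD, n = 2), so replicate 1 was 2.45-fold higher on one scale and level on the other. A gap of over 2-fold between the TPM ratio and the CPM ratio occurred in 1.74% of 9330 protein-coding genes with 100 counts or more in both libraries.

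The gap lay on the short transcript. The coding transcript Pla2g4a-201 had 1023.78 and 915.96 counts and 12.93 and 12.95 TPM, nearly the same in both libraries. Pla2g4a-203, 247 bases long with an effective length of 94.28 bases in replicate 1, had 59.79 counts there and 0 in replicate 2. Those counts were 21.59 TPM in replicate 1, with an interval of 15.4 to 26.8 TPM in the authors' deposited table, because TPM divides by the effective length. They made up 60.45% of the TPM of the gene, although all processed transcripts of Pla2g4a together held 5.08% of its counts. The coding transcripts held 86.1% of the counts in replicate 1 and 86.7% in replicate 2, and a retained-intron transcript, Pla2g4a-204, held 8.82% and 13.3%. How the reads of Pla2g4a-203 lie over the repeats of the stretch above was not tested.

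**Figure D2:**
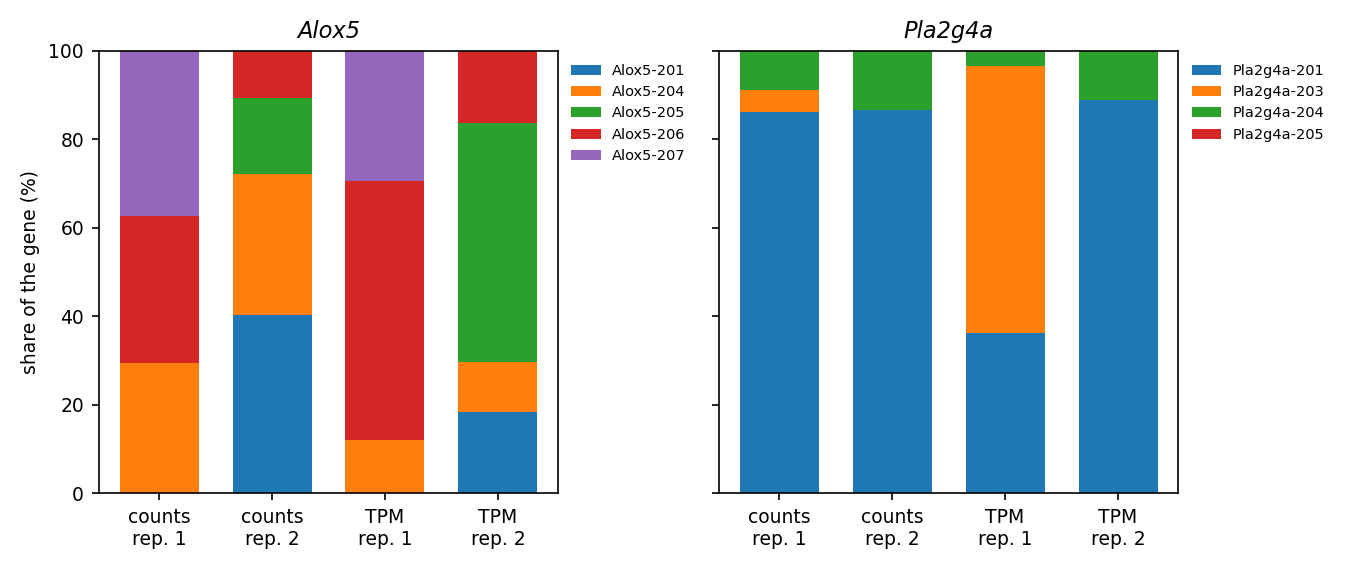
Share of each gene's counts (left pair of bars) and of its TPM (right pair) on each transcript, in percent, for Alox5 and Pla2g4a in replicates 1 and 2. Pla2g4a-203 takes 60.45% of the TPM of Pla2g4a in replicate 1 and none in replicate 2, and Alox5 is split over different transcripts in the 2 libraries.

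Alox5, 5-lipoxygenase itself, lies at chr6:116410077-116461178 on the minus strand and was the lowest of the 5 expressed genes. It had 260 counts in replicate 1 (95% exact Poisson interval 229 to 294) and 101 in replicate 2 (82.3 to 123), equal to 6.33 and 3.17 TPM, or 4.75 ± 2.23 (SD, n = 2). By CPM replicate 1 was 2.27-fold higher (1.79 to 2.88), more than counting error allows. Alox5 had the widest CPM difference of the 5 expressed genes, and the summed TPM of the later neutrophil markers was also higher in replicate 1 (90.87 and 8.97). Of those 7 markers 6 were higher in replicate 1, Cxcr2 only slightly (4.14 and 3.77 TPM), while Mmp8 was higher in replicate 2 (1.07 and 2.24 TPM), and their part in the result was not tested.

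Most Alox5 counts were not assigned to coding transcripts, though the assignment is an estimate where transcripts share bases. Transcripts annotated with a retained intron held 62.7% of its counts in replicate 1 and 59.7% in replicate 2, beside medians of 6.31% and 7.22% over 4264 protein-coding genes with such a transcript and 50 counts or more in both libraries. More than 50% in both libraries was found in 2.81% of those genes. On the coding transcripts, Alox5 had 96.93 counts and 1.87 TPM in replicate 1 and 40.73 counts and 0.58 TPM in replicate 2, so on these transcripts alone it was below 1 TPM in replicate 2.

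The retained-intron counts were split over 3 transcripts, a pair of which cover only the 3′ part of the gene. Alox5-206, at the 3′ end, had 86.46 counts in replicate 1 and 10.78 in replicate 2, or 58.46% and 16.25% of the TPM of Alox5. Alox5-205 had 0 and 17.45 counts, or 0% and 54.04%, so the leading transcript by TPM was not the same in the 2 libraries. Every base of Alox5-205 is also in another transcript of the gene, so its counts rest on the estimated division of reads. The deposited posterior SDs in replicate 2 were 4.3 counts for Alox5-205 and 5.09 for Alox5-206. A change of leading transcript was common, at 31.0% of 7379 protein-coding genes with several transcripts and 50 counts or more in both libraries. Alox5-204, which runs from the first to the last exon with introns kept near its 3′ end, had 76.61 and 32.04 counts, or 12.06% and 11.29%.

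The coding counts also changed transcript. In replicate 1 they were all given to Alox5-207 (96.93 counts), which lacks the 96-base stretch printed above and the untranslated ends, and in replicate 2 all to Alox5-201 (40.73 counts). The posterior SD deposited with these counts was 14.76 for Alox5-207 in replicate 1 and 7.14 for Alox5-201 in replicate 2, while Alox5-201 in replicate 1 had 0 counts with an SD of 14.83. Every base of Alox5-207 is also in Alox5-201, so the 2 differ only in what Alox5-207 leaves out. The counts of the genes as a whole did not share this uncertainty, since their posterior SD was 0 for all 10 genes in both libraries. The TPM of a gene does depend on how its counts are divided, because transcripts differ in effective length. For Alox5 the authors' deposited limits were 5.287 to 7.323 TPM in replicate 1 and 2.175 to 4.562 TPM in replicate 2.

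**Figure D3:**
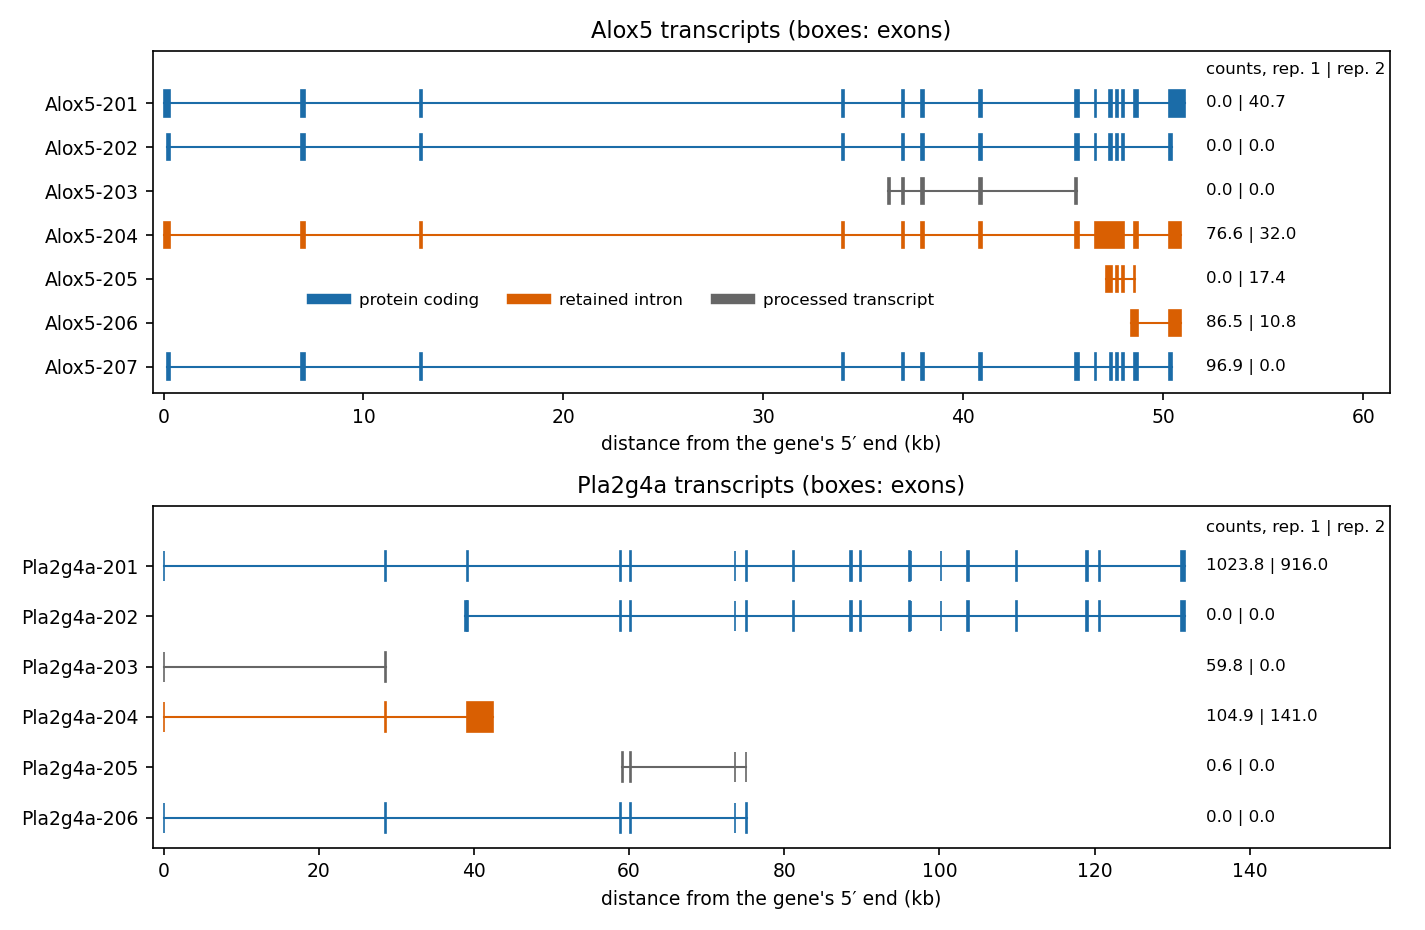
Annotated transcripts of Alox5 and Pla2g4a, with exons as boxes along the distance from the 5′ end of the gene in kilobases, coloured by annotated class, and the expected counts of replicates 1 and 2 at the right. Alox5 counts are spread over coding models, the long retained-intron model Alox5-204 and short retained-intron models near the 3′ end, and the 59.79 counts of Pla2g4a-203 fall on a model that ends within the first part of the gene.

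Alox5ap, the 5-lipoxygenase activating protein that hands arachidonic acid to 5-lipoxygenase, lies at chr5:149264767-149288153 on the plus strand. It had 3508 counts in replicate 1 and 2956 in replicate 2, equal to 172.66 and 162.33 TPM, 168 ± 7.3 (SD, n = 2), rank 337 among protein-coding genes. The libraries were alike, with a CPM ratio of replicate 2 to replicate 1 of 0.957 (0.911 to 1.01), and every count lay on the coding transcript. Its TPM was 27.3-fold that of Alox5 in replicate 1 and 51.2-fold in replicate 2, so the activating protein was far above the enzyme it serves in both libraries. An antisense gene, Gm19719, overlaps Alox5ap and was not in the tables, and whether reads were counted by strand is not given in the sources used here.

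Lta4h, leukotriene A4 hydrolase, which makes leukotriene B4, lies at chr10:93453411-93484875 on the plus strand and was the highest of the 10 genes. It had 12619 and 9156 counts, equal to 225.41 and 183.02 TPM, 204 ± 30.0 (SD, n = 2), rank 289 among protein-coding genes. It was higher in replicate 1 by 1.21-fold in CPM (1.18 to 1.25), a small difference beyond counting error. Its TPM was 35.6-fold that of Alox5 in replicate 1 and 57.7-fold in replicate 2, and 1.31-fold and 1.13-fold that of Alox5ap.

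Ltc4s, leukotriene C4 synthase, at chr11:50236461-50238616 on the minus strand, makes the first of the cysteinyl leukotrienes. It had 0 counts in replicate 1 and 10 in replicate 2, equal to 0 and 0.78 TPM. By CPM replicate 2 was 3.79-fold above a floor of 3 counts in replicate 1. The exact counting interval of the CPM ratio starts lower, at 2.55, so 3.79 is not a lower bound. The antisense gene Gm26542 overlaps Ltc4s and also had 0 counts in replicate 1 and 19 in replicate 2, so the reads of the pair cannot be told apart without strand. Alox5ap, a relative in the same protein family, was 769-fold above Ltc4s in TPM in replicate 1 and 208-fold above it in replicate 2. In replicate 1 Ltc4s was set at the floor (0.225 TPM). The authors' upper limit there, 0.496 TPM, is higher, so 769 is not a lower bound.

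Ptgs1, the cyclooxygenase that most tissues make constantly, lies at chr2:36230426-36252272 on the plus strand. It had 744 and 626 counts, equal to 10.07 and 9.86 TPM, 9.97 ± 0.148 (SD, n = 2). The libraries did not differ beyond counting error, with a CPM ratio of replicate 2 to replicate 1 of 0.955 (0.858 to 1.06). The coding transcript Ptgs1-201 held 98.3% of its counts in replicate 1 and 97.3% in replicate 2. A retained-intron transcript of 663 bases, Ptgs1-205, had 13 and 17 counts, which its short length turned into 8.74% and 13.01% of the TPM.

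Ptgs2, the cyclooxygenase induced by inflammatory signals, lies at chr1:150100031-150108227 on the plus strand. It had 0 counts in replicate 1 and 22 in replicate 2, equal to 0 and 0.38 TPM. By CPM replicate 2 was 8.33-fold above the floor in replicate 1, and the counting interval of the CPM ratio starts at 6.22. Of the 22 counts, 21 lay on the full-length Ptgs2-201, and 1 count on Ptgs2-202, of 358 bases, made up 50.27% of the TPM. Ptgs1 was 221-fold above Ptgs2 in TPM in replicate 1, where Ptgs2 was set at the floor, and 25.9-fold above it in replicate 2. The authors' upper limit for Ptgs2 in replicate 1, 0.496 TPM, is higher than that floor (0.0455 TPM), so 221 is not a lower bound.

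Hpgds, the haematopoietic prostaglandin D synthase of mast cells and some T cells, lies at chr6:65117293-65144908 on the minus strand. It had 0 counts in replicate 1 and 16 in replicate 2, equal to 0 and 0.18 TPM. By CPM replicate 2 was 6.06-fold above the floor in replicate 1, and the counting interval of the CPM ratio starts at 4.38. The summed level of basophil and mast cell markers was higher in replicate 1 instead, at 224 and 135.5 TPM. Prss34 (44.66 and 1.15 TPM) and Fcer1a (7.91 and 0.06 TPM) lay furthest that way, while Cpa3 differed by 1.16-fold and Hdc (37.93 and 39.69 TPM) and Gata2 (9.69 and 9.93 TPM) were slightly higher in replicate 2. Their part in the result was not tested. Ltc4s, Ptgs2 and Hpgds thus shared a pattern of 0 counts in replicate 1 and 10 or more in replicate 2, which 3.88% of 11818 protein-coding genes with 10 counts in at least 1 library had, while 2.74% had the reverse. The macrophage markers C1qa (0 and 14 counts) and C1qb (0 and 15 counts) and the platelet marker Pf4 (0 and 15 counts) had it too. Of the 3 highest macrophage markers, Axl at 182 and 28 counts and Adgre1 at 368 and 252 lay the other way. Vcam1 at 190 and 262 counts was higher in replicate 2, and the summed TPM of the macrophage list was 8.38 and 8.55. The part of these markers in the result was not tested.

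Alox12, the platelet 12-lipoxygenase, at chr11:70241457-70255353, and Alox15, a 12/15-lipoxygenase of macrophages and eosinophils, at chr11:70344152-70352031, both on the minus strand, had 0 counts in both libraries. A count of 0 allows up to 0.0741 CPM in replicate 1 and 0.0841 CPM in replicate 2 for each. In TPM, Alox5 was 78.1-fold and 35.0-fold above that floor for Alox15, and 155-fold and 69.2-fold above it for Alox12. These folds are not lower bounds, since the authors' deposited upper limits are higher than the floor. They are 0.378 and 0.416 TPM for Alox15 and 0.0638 and 0.072 TPM for Alox12. Of the platelet and eosinophil markers, Ppbp, Prg2, Il5ra and Ccr3 were also at 0 counts in both libraries, while Itga2b (8.15 and 6.0 TPM), Siglecf (5.69 and 7.98) and Prg3 (8.12 and 3.68) were at 1 TPM or more in both.

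In order of level, Lta4h was above Alox5ap in both libraries, and their ranges did not overlap. Pla2g4a followed at 14.58 to 35.71 TPM, then Ptgs1 at 9.86 to 10.07 and Alox5 at 3.17 to 6.33, again without overlap. On the coding transcript alone, Pla2g4a was at 12.93 and 12.95 TPM, which keeps its place above Ptgs1. The ranges of Ltc4s, Ptgs2 and Hpgds all start at 0 and overlap, so these 3 cannot be ordered.

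Of the 8 genes with 10 counts or more in at least 1 library, 1 was over 2-fold apart on the log2(TPM + 1) scale, Pla2g4a at -1.24, beside 7.84% of such protein-coding genes. On the log2(CPM + 1) scale none of the 8 was, beside 7.19%, and Alox5 came closest at -0.95. Adding 1 understates ratios of low genes, so the genes with 0 counts in replicate 1 stay under the limit on both scales. The counting interval of the CPM ratio left out 1 for 5 of the 8 genes (Alox5, Lta4h, Ltc4s, Ptgs2 and Hpgds), beside 74.7% of protein-coding genes under the same filter. Ltc4s, Ptgs2 and Hpgds passed that filter through replicate 2 alone, and 0 counts beside 10 or more always give an interval that leaves out 1. Their place among the 5 was thus fixed by the filter, unlike that of Alox5 and Lta4h.

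**Figure D4:**
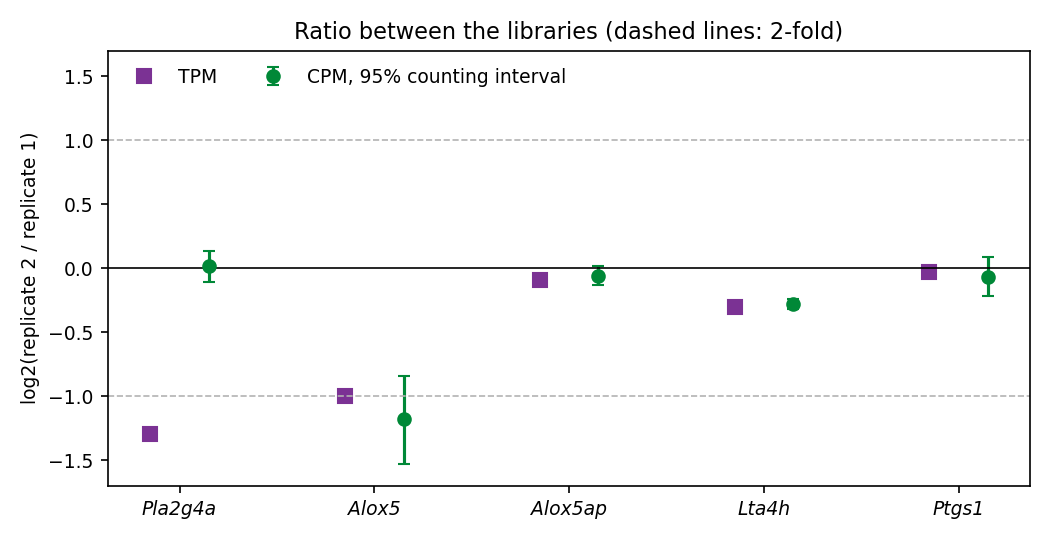
Log2 ratio of replicate 2 to replicate 1 for the 5 expressed genes, by TPM (squares) and by CPM with its 95% counting interval (circles), with no constant added; dashed lines mark 2-fold. The squares and circles lie together for Alox5ap, Lta4h and Ptgs1, and apart for Pla2g4a, where the TPM ratio is 0.408 and the CPM ratio 1.01.

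Other genes of the pathway were taken from 9 lists of 60 genes in all, of which 28 were at 1 TPM or more in both libraries, beside the same 45.6% of protein-coding genes, and 17 had 0 counts in both. Their median of mean TPM was 1.24. All 5 genes of acyl remodelling, which load arachidonic acid into phospholipids, were at 1 TPM or more, led by the acyltransferase Mboat7 (36.54 and 30.57 TPM), the acyl-CoA ligase Acsl1 (23.04 and 23.86), Lpcat3 (18.37 and 25.14) and Acsl4 (8.89 and 8.78). Of 10 other phospholipases, 3 were at that level: the lysosomal Pla2g15 (10.81 and 16.63 TPM), the calcium-independent Pla2g6 (7.32 and 9.81) and Pla2g12a (6.4 and 9.38). Pla2g4c was at 0 and 1.0 TPM (0 and 85 counts), and Pla2g4f, Pla2g2d, Pla2g5 and Pla2g10 had 0 counts in both.

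Of the proteins known to act on 5-lipoxygenase or on the release of its substrate, 4 of 4 were at 1 TPM or more. They were Mapkapk2, a kinase that phosphorylates 5-lipoxygenase (101.47 and 122.16 TPM), Anxa1, which restrains phospholipase A2 (113.03 and 92.19), Cotl1, a binding partner of the enzyme (48.13 and 50.41), and Dicer1, another binding partner (12.88 and 13.71). None of the 4 other lipoxygenases, Alox8, Alox12b, Alox12e and Aloxe3, had a count in either library. Alox5 was thus the one gene with counts among the 7 lipoxygenases listed, members included.

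The membrane relatives of Ltc4s and Alox5ap, the microsomal glutathione transferases, were all at 1 TPM or more: Mgst1 at 63.2 and 77.12 TPM, Mgst2 at 60.54 and 57.11, and Mgst3 at 5.63 and 7.43. Mgst2, which can also join leukotriene A4 to glutathione, was 270-fold above Ltc4s in TPM in replicate 1 and 73.2-fold above it in replicate 2. In replicate 1 Ltc4s was set at the floor, so 270 is not a lower bound.

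Among terminal prostanoid synthases 6 of 8 were at 1 TPM or more in both. The highest were Akr1b3, an aldose reductase that can make prostaglandin F2 alpha (130.48 and 166.22 TPM), and Ptges3, the cytosolic prostaglandin E synthase that is also an Hsp90 co-chaperone (98.02 and 105.28). Ptges2 was at 15.38 and 8.55 TPM and the carbonyl reductase Cbr1 at 12.77 and 9.93. Akr1b3 and Ptges3 had counts that were not whole numbers, as happens where reads are divided between similar genes, with deposited posterior SDs of 4.0 and 4.1 counts for Akr1b3 and 22.3 and 17.71 for Ptges3. Ptgis, prostacyclin synthase, had 0 counts in both.

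Of 11 genes of export and inactivation, 5 were at 1 TPM or more in both. The leukotriene C4 exporter Abcc1 was at 36.02 and 23.72 TPM, Ptgr1, which inactivates leukotriene B4, at 27.83 and 27.19, the prostaglandin exporter Abcc4 at 20.21 and 16.41, and Ptgr2 at 10.64 and 11.98. Ggt5, a gamma-glutamyl transferase that converts leukotriene C4 to leukotriene D4, had 3.61 and 0.48 TPM in replicates 1 and 2, on 87 and 54 counts. On the log2(TPM + 1) scale it was the 1 gene over 2-fold apart of the 42 listed genes of all 9 lists with 10 counts or more in at least 1 library, beside 7.84% of protein-coding genes. On the log2(CPM + 1) scale Ggt5 was at only -0.32, while Pla2g4c was over 2-fold apart at 1.76, beside 7.19% of protein-coding genes. With no constant added, 4 genes with 3 counts or more in both libraries were over 2-fold apart in TPM: Ggt5, the dipeptidase Dpep2 (1.75 and 0.63 TPM), the thromboxane synthase Tbxas1 (5.92 and 12.45) and the receptor Ltb4r2 (1.04 and 0.18). Another 7 had 10 counts or more in 1 library and under 3 in the other. Slco2a1 and Dpep1 had 0 counts in both.

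Receptors were sparse. Of 6 leukotriene receptors, 1 was at 1 TPM or more in both, the high-affinity leukotriene B4 receptor Ltb4r1 (9.27 and 11.23 TPM). Cysltr1 was at 0.85 and 1.07, Ltb4r2 at 1.04 and 0.18 and Cysltr2 at 0.67 and 0.02, while Oxgr1 and Gpr17 had 0 counts. Of 9 prostanoid receptors, 1 was at that level, the prostaglandin E2 receptor Ptger4 (1.79 and 3.04 TPM), followed by Ptger3 (0.86 and 1.67), Ptger2 (0.93 and 1.51) and the prostacyclin receptor Ptgir (0.51 and 0.56). Ptger1, Ptgdr, Ptgdr2 and Tbxa2r had 0 counts in both, so neither receptor for prostaglandin D2 was detected, with the floor set at 3 counts a library.

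**Figure D5:**
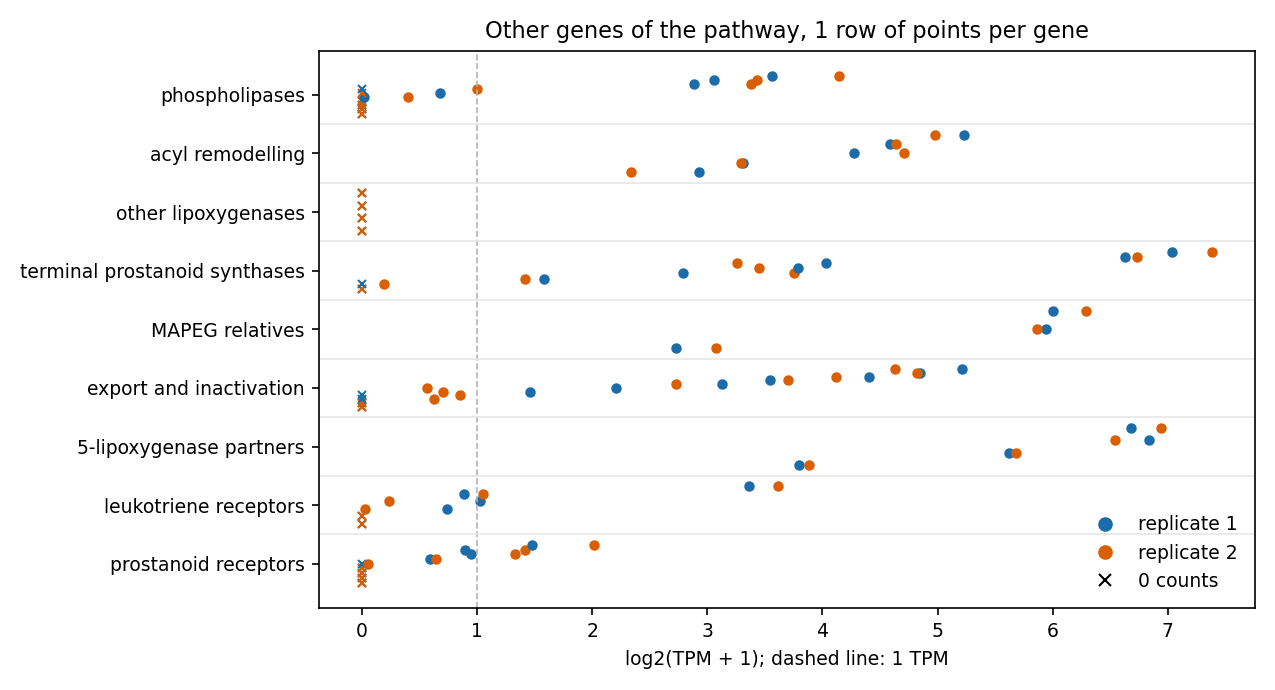
Level of the 60 other pathway genes as log2(TPM + 1) on the horizontal axis, 1 row of points per gene within each list, replicate 1 in blue and replicate 2 in orange, crosses for 0 counts and a dashed line at 1 TPM. Acyl remodelling, glutathione transferase relatives and 5-lipoxygenase partners lie to the right of the line in full, while other lipoxygenases lie at 0.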

How the data were processed

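Each of the 2 libraries has a deposited gene table and a deposited transcript table, built on mm10 and annotation M4 per the deposited text files. The aligner, the quantifier and any use of strand: not given in the sources used here. By gene span, other pathway genes also overlap genes of the opposite strand with more counts, among them Tbxas1 with Hipk2, Lpcat3 with Emg1 and Ptger4 with Ttc33. Whether reads of these pairs are mixed was not tested. The authors deposited expected counts, which are estimated and need not be whole. The deposited TPM values share a fixed total among all rows, including spike-ins and mitochondrial genes, and the deposited FPKM values are relative to effective length and library size. The percent values the authors deposited give how the TPM of a gene divides over its transcripts, as a point estimate or a posterior mean.

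Symbols, classes and coordinates came from GENCODE M21 (GRCm38), matched by Ensembl identifier without version, and 42462 of 69691 rows matched. RefSeq promoter windows were matched by symbol. CPM is counts over the library total of 40509954 or 35675702. CPM ratios have exact conditional binomial intervals and counts exact Poisson intervals, both at 95%. Intervals and the floor of 3 counts cover counting error only. Log values add 1.

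No test was made, since there is 1 group. All 10 genes are named. Of each list of other pathway genes, the 4 highest, those at 0 in both libraries and those over 2-fold apart are named, and of each marker list the 3 highest and those at 0, of which only the ones that bear on a result are printed. Prss34, Fcer1a, Gata2, Cxcr2, Mmp8, C1qa and C1qb lie outside this rule and were chosen after their values were seen. The members and lists were chosen with earlier results of these data known. The ratio step was tested on simulated data. The alternatives were other thresholds, units, pseudocounts, filters, scalings (from edgeR 4.0.16 and DESeq2 1.42.0, R 4.3.3, after rounding expected counts to integers), each replicate left out, and, chosen after seeing the data, coding transcripts only and posterior-mean shares. Python 3.11.15 did the rest, with pandas 2.3.3, scipy 1.17.1, numpy 2.4.6 and, for plots, matplotlib 3.10.9.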

Additional observations from a re-analysis of the deposited data

How the results depend on the processing

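The count of 5 members at 1 TPM or more stayed between 4 and 5, and that of 28 other pathway genes between 25 and 33, under other thresholds, FPKM, CPM and a rescaling of TPM without abundant RNAs and spike-ins. That rescaling raised the mean TPM of all 5 expressed genes, from 204 to 382 for Lta4h, 168 to 313 for Alox5ap, 25.1 to 47.4 for Pla2g4a, 9.97 to 18.6 for Ptgs1 and 4.75 to 8.93 for Alox5, in the same order. Leaving out each replicate gave 5 members either way, and 31 to 32 other genes. The count of 1 member over 2-fold apart fell to 0 by CPM and, in an alternative chosen after seeing the data, to 0 on protein-coding transcripts only. It was 1 with edgeR or DESeq2 factors, but then the gene was Alox5 (-1.02 with either) and not Pla2g4a (-0.07). The log2 ratio of Pla2g4a changed sign from -1.24 by TPM to 0.013 by CPM and 0.0021 on protein-coding transcripts. The mean log2 ratio of levels with 1 added to TPM moved as follows. With 0.1 added it went from 3.22 to 5.52 for Ptgs1 to Ptgs2, from 6.98 to 9.14 for Alox5ap to Ltc4s, and from 2.47 to 5.52 for Alox5 to Alox15 and for Alox5 to Alox12. With FPKM it went to 2.87 for Ptgs1 to Ptgs2. Adding a smaller constant raises ratios against a gene at or near 0. No paired analysis was possible because there is only 1 group. The depth limits what can be said of Ltc4s, Ptgs2 and Hpgds, which rest on 10 to 22 counts in 1 library. With 2 libraries no order of members beyond non-overlap was tested.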
